A study of Rattus norvegicus with 6 samples.

Results

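The genes described here are 10 transcripts that heart muscle is known to raise when it is stretched or overloaded: Ankrd1, Ankrd2, Ankrd23, Csrp3, Xirp1, Xirp2, Nppa, Nppb, Myh7 and Acta1. They were picked by symbol, with their values in the BPVB and sham groups already known, and are 10 of the 17833 genes of the table. Bulk RNA-seq had been performed on pulmonary veins (PVs) of wild-type Sprague-Dawley (SD) rats at postnatal day 21 (P21), taken at the right upper lobe. In 3 rats of the bilateral pulmonary vein banding (BPVB) group the veins had been constricted at postnatal day 1, and 3 rats of the sham group had the same opening of the chest without constriction. Each library came from a separate rat, so that the spread within a group covers the animal and its library. With 3 rats per group it may understate the spread between rats. The banding is a model of PV stenosis in growing rats, and only the banded group carried it.

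The wall of the PV near the heart holds a sleeve of atrial-like heart muscle, so that cardiomyocyte transcripts are found in this tissue beside those of smooth muscle and endothelium. In cardiomyocytes, a load on the wall is sensed at the Z-disc, where thin filaments and the giant spring protein titin are anchored, and at the intercalated disc, which joins one cell to the next. Overloaded heart muscle is known for a return of fetal genes, among them natriuretic peptides, slow myosin and skeletal actin, and for a rise of the ankyrin repeat proteins that bind titin.

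Expression is given as FPKM, the fragments counted on a gene scaled to the length of the gene and to the size of the library, so that levels can be set side by side between genes as well as between rats. Library totals, recovered from the values, ranged from 23439506 to 29725808 fragments. Differences between the groups are log2 fold changes of FPKM + 0.5, BPVB minus sham, fitted with limma over 15150 genes, those whose mean FPKM was 0.1 or more. A gene was called higher or lower where its adjusted p was under 0.05. The labelled tissue was checked against its markers: Acta2 of smooth muscle stood at 1680 ± 21.4 FPKM and Pecam1 of endothelium at 285 ± 0.668 (SD, n = 3) in the sham group. In the same group the atrial light chain Myl7 stood at 8131 ± 74.2 FPKM and the ventricular light chain Myl2 at 10.7 ± 1.79 (SD, n = 3).

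All 10 genes passed the filter on low values. A total of 8 were called higher in the BPVB group, against 17.2% of all genes tested, 1 was called lower, against 14.3%, and 1 was not called. Past both thresholds of the study, which add to the adjusted p a log2 fold change of more than 1 in either direction, there were 7 genes. All 7 were higher, and 2.24% of all genes tested were higher past both thresholds. For 9 of the 10 the BPVB values lay wholly above or below the sham values, which held for 45.6% of all genes tested. Since the genes were chosen with these values known, the counts and the median log2 fold change of 1.35, beside 0.02 for all genes tested, are a description and carry no test. The 7 genes past both thresholds were the 3 ankyrin repeat genes, both Xirp genes, Nppb and Acta1. In bulk tissue, a change in the number of cardiomyocytes and a change in the transcripts of each cardiomyocyte cannot be told apart.

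**Figure D1:**
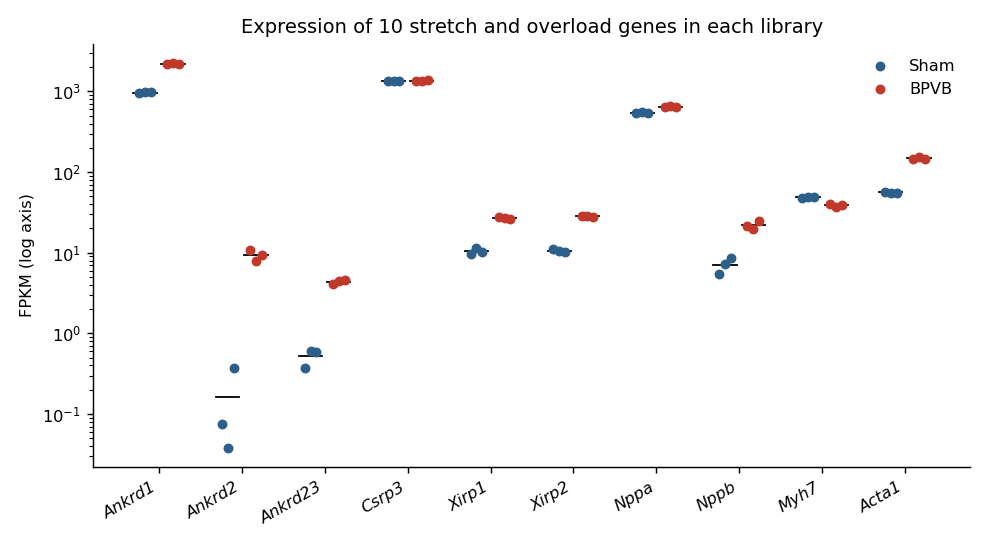
FPKM of each of the 10 genes on a log axis, with 1 point per library, 3 sham (blue) and 3 BPVB (red) for each gene, and a line at the mean of the group. The points of the groups are apart for every gene but Csrp3, and Myh7 is the gene whose BPVB points lie below the sham points.

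Promoter windows of 300 bases, from 250 before to 50 after the start of the gene, from RefSeq (build GRCr8) were matched to 8 of the 10 genes, and windows of Ankrd1 and Csrp3 were not analysed here. Sequences of 4 genes are shown: those of Acta1, Nppb and Ankrd23, because their windows hold the core of an M-CAT element, the site of the TEAD factors, and that of Nppa, because it lies on the same chromosome and strand as Nppb and differed much less between the groups. The windows are at chr19:68784145-68784444 on the minus strand for Acta1, chr5:163699758-163700057 on the plus strand for Nppb, chr9:46274461-46274760 on the minus strand for Ankrd23 and chr5:163711934-163712233 on the plus strand for Nppa. They are written 5′ to 3′ in the direction of the gene. Capitals mark the CArG box, the site of serum response factor (SRF), and the M-CAT core CATTCC, which in Nppb lies on the reverse strand.
Acta1: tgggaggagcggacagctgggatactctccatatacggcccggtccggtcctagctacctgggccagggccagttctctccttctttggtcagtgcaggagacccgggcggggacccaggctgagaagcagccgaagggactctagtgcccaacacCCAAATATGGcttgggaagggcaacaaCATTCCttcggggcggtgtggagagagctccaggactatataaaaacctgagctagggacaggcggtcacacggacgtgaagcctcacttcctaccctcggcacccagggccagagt
Nppb: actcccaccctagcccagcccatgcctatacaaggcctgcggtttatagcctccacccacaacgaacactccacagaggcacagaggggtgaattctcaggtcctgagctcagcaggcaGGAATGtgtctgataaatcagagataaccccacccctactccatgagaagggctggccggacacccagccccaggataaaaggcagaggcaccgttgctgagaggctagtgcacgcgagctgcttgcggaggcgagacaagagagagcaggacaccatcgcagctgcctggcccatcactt
Ankrd23: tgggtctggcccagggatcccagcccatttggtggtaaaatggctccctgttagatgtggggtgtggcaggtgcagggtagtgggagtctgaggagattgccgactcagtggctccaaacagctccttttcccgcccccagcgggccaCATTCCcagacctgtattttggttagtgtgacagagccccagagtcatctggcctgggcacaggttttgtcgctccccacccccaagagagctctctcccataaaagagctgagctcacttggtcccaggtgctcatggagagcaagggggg
Nppa: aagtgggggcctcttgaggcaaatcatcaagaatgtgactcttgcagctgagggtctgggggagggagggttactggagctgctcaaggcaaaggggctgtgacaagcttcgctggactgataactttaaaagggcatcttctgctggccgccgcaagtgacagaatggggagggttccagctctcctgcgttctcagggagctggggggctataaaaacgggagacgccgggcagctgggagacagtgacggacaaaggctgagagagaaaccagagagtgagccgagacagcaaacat

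A total of 5 motifs were searched on both strands of 33469 windows. A CArG box was found in 1.64% of all windows and, among these genes, in that of Acta1, where it began 94 bases before the start. The M-CAT core CATTCC was in 14.2% of all windows and in those of Acta1, Nppb and Ankrd23, where it began 67, 131 and 102 bases before the start. The MEF2 site, a motif of muscle enhancers, was in 3.29% of all windows, in that of Xirp2 and in some of Xirp1. The GATA site AGATAA was in 11.6% of all windows, in some of Xirp1 and in that of Nppb, 110 bases before the start. Of several windows of Xirp1, those from base 128634962 and from 128634954, which overlap, held both motifs, and that from 128633105 held neither. A gene counted as holding a motif if any of its windows did, whereas the percentages are per window. The TATA box, searched as TATAAA, was in 14.2% of all windows and in those of Ankrd2, Nppa, Nppb and Acta1, although the match in Nppb was on the reverse strand. A CArG box and a MEF2 site can share bases with a TATA box. The window of Myh7 held none of the 5, which says only that these letters do not occur in it. Its last bases are the first codons of the gene, and the bases just before its start resemble the end of an intron. The window may therefore miss the site where transcription begins, and it says nothing on motifs of the Myh7 promoter.

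The muscle ankyrin repeat proteins (MARPs), Ankrd1, Ankrd2 and Ankrd23, bind the spring region of titin in the I band and can move to the nucleus. They had the largest differences of the 10 genes in the case of Ankrd2 and Ankrd23, and the highest level of the 10 genes in the BPVB group in the case of Ankrd1. In the deposited annotation, titin binding and the I band are terms that all 3 share, and that 12 and 20 of the genes tested carry.

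Ankrd1 (NCBI Gene 27064), also known as cardiac ankyrin repeat protein, had 2204, 2238 and 2199.9 FPKM in the BPVB rats and 965, 970.2 and 973 in the sham rats. Every BPVB value was more than 2 times every sham value, and the libraries of a group lay close together, with coefficients of variation of 0.951% and 0.412%. The group means of 2214 ± 21.0 and 969 ± 3.99 FPKM (SD, n = 3) gave a 2.28-fold difference and a log2 fold change of 1.19 (standard error 0.019). Among all genes of the table, Ankrd1 ranked 69 by mean FPKM in the sham group and 15 in the BPVB group.

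Ankrd2 (NCBI Gene 309374), the member of the family best known from slow skeletal muscle, had 10.9, 7.94 and 9.28 FPKM in the BPVB rats and 0.0754, 0.0382 and 0.376 in the sham rats. The lowest BPVB value was above the highest sham value, but the sham values rested on very few fragments, 2, 1 and 10, against 325, 231 and 308 in the BPVB libraries. Summed over the libraries and divided by their totals, the 864 and 13 fragments gave a ratio of 57.2, with an exact 95% interval of 33.3 to 108 that covers counting error only. Without sham replicate 3, which held 10 of the 13 fragments, the ratio was 165 (56.2 to 801). The log2 fold change of 3.92 (standard error 0.20) depended on the pseudocount of 0.5 and was 3.16 with 1 and 5.38 with 0.1.

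Ankrd23 (NCBI Gene 316330), which encodes the diabetes-related ankyrin repeat protein, had 4.14, 4.51 and 4.53 FPKM in the BPVB rats and 0.368, 0.597 and 0.588 in the sham rats. Again all 3 BPVB values were well above the sham values, at a low level in both groups. Its 1037 and 105 fragments gave a ratio of 8.50 per library total (exact 95% interval 6.95 to 10.5, counting error only), and the log2 fold change was 2.27 (standard error 0.13). A pseudocount of 1 gave 1.83, and one of 0.1 gave 2.89.

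Within the family, Ankrd1 made up nearly all of the summed FPKM in both groups. The share of Ankrd2 and Ankrd23 together was 0.0701% ± 0.0268 in the sham group and 0.619% ± 0.0630 in the BPVB group (SD, n = 3), with no overlap of the libraries. This share and the others of its kind below were chosen after the levels were seen.

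Csrp3 (NCBI Gene 117505) encodes muscle LIM protein, a Z-disc protein of the stretch sensor that acts with the titin cap Tcap. It was the highest of the 10 genes in the sham group and the one gene whose groups overlapped, with 1359, 1349 and 1368 FPKM in the BPVB rats and 1331, 1329 and 1356 in the sham rats. The highest sham value was above the lowest BPVB value, and the means of 1359 ± 9.14 and 1339 ± 14.7 FPKM (SD, n = 3) differed by about the spread within a group. The log2 fold change was 0.02 (standard error 0.019), and this gene was not called.

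Xirp1 and Xirp2 encode the Xin proteins, which bind actin filaments at the intercalated disc and at sites of muscle damage and remodelling. Xirp1 (NCBI Gene 100910104) had 27.6, 26.9 and 26.1 FPKM in the BPVB rats and 9.75, 11.3 and 10.1 in the sham rats. Xirp2 (NCBI Gene 311098) had 28.7, 28.2 and 27.8 FPKM in the BPVB rats and 11.1, 10.5 and 10.1 in the sham rats. The 2 genes stood at nearly the same level per length in each group and were 2.58-fold and 2.67-fold higher in the BPVB group. Their log2 fold changes were 1.33 (standard error 0.065) and 1.38 (standard error 0.052). In the sham group the libraries of the 2 genes overlapped, whereas in the BPVB group each Xirp2 value was above each Xirp1 value.

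The natriuretic peptides Nppa (ANP) and Nppb (BNP) are hormones that heart muscle releases when its wall is stretched, the former mainly from the atria. Nppa (NCBI Gene 24602) had 635, 654 and 645 FPKM in the BPVB rats and 535, 562 and 547 in the sham rats. All BPVB values were above all sham values, but by a small margin, 645 ± 9.41 against 548 ± 13.8 FPKM (SD, n = 3), which is 1.18-fold and a log2 fold change of 0.23 (standard error 0.026).

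Nppb (NCBI Gene 25105) had 21.5, 19.9 and 24.8 FPKM in the BPVB rats and 5.50, 7.27 and 8.51 in the sham rats. The 3 values of a group varied more than those of most of the other genes, with coefficients of variation of 11.5% and 21.3%, and yet each BPVB value was more than 2 times each sham value. The means were 22.1 ± 2.54 and 7.09 ± 1.51 FPKM (SD, n = 3), a 3.11-fold difference, with a log2 fold change of 1.59 (standard error 0.14). Behind them lay 1246 and 343 fragments. Nppb made up 1.28% ± 0.257 of the summed FPKM of both peptides in the sham group and 3.31% ± 0.382 in the BPVB group (SD, n = 3), so that Nppa remained the main natriuretic peptide transcript of this tissue in every library.

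Myh7 and Acta1 belong to the sarcomere itself. Myh7 (NCBI Gene 29557) encodes the slow beta myosin heavy chain, which in rodent hearts gives way to the fast alpha chain Myh6 after birth and is known to return under overload. In these veins it was lower in the BPVB group, with 40.3, 37.1 and 38.6 FPKM in the BPVB rats and 48.1, 49.7 and 48.6 in the sham rats. No BPVB value reached the lowest sham value, and the means of 38.7 ± 1.60 and 48.8 ± 0.829 FPKM (SD, n = 3) gave a ratio of 0.792 and a log2 fold change of -0.33 (standard error 0.042). Myh6 was also lower (log2 fold change -0.36, standard error 0.038, adjusted p = 1.5e-04, limma). The share of Myh7 in the summed FPKM of Myh6 and Myh7 was 3.01% ± 0.124 in the sham group and 3.06% ± 0.194 in the BPVB group (SD, n = 3), and the libraries of the groups overlapped.

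Acta1 (NCBI Gene 29437) encodes skeletal alpha-actin, the fetal partner of the cardiac alpha-actin Actc1. It had 146, 154 and 143 FPKM in the BPVB rats and 57.1, 55.7 and 55.3 in the sham rats. The groups were far apart, 148 ± 5.30 against 56.0 ± 0.911 FPKM (SD, n = 3), a 2.64-fold difference with a log2 fold change of 1.39 (standard error 0.035). Actc1 fell from 3949 ± 18.9 to 3172 ± 33.7 FPKM (SD, n = 3; adjusted p = 2.7e-06, limma). The share of Acta1 in the summed FPKM of both actins was 1.42%, 1.40% and 1.38% in the sham libraries and 4.39%, 4.58% and 4.37% in the BPVB libraries. Coding sequences of the actins, and of Myh6 and Myh7, are nearly alike, so that reads could have been assigned to the wrong gene of a pair, and the levels of Acta1 and Myh7 are uncertain to that extent.

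**Figure D2:**
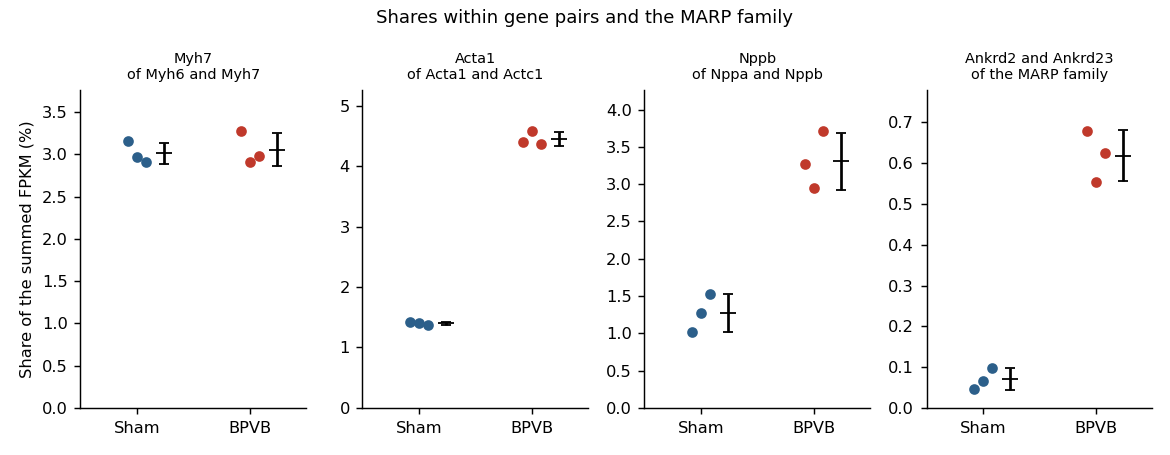
Share of a gene in the summed FPKM of its pair or family, in percent, with 1 point per library and the mean ± SD of the 3 libraries beside them. Libraries of the groups overlap for Myh7 and are apart for Acta1, Nppb and the sum of Ankrd2 and Ankrd23.

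Per length, the order of the levels in the sham group was Csrp3, Ankrd1, Nppa, Acta1, Myh7, Xirp2, Xirp1, Nppb, Ankrd23 and Ankrd2. Neighbours in this order were apart in all libraries, except Xirp2 and Xirp1, and Ankrd23 and Ankrd2, whose libraries overlapped. In the BPVB group Ankrd1 stood above Csrp3 and Ankrd2 above Ankrd23, and no pair of neighbours overlapped. The levels spanned 4.39 to 2214 FPKM in the BPVB group, from Ankrd23 at rank 8831 to Ankrd1 at rank 15 among all genes of the table by mean FPKM.

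The 10 genes were set beside a reference of other cardiomyocyte transcripts. Of 12 cardiomyocyte reference genes (contractile, calcium-handling and atrial genes that are not among the 10), 2 were higher, 8 were lower and 2 were not called, with a median log2 fold change of -0.26 under the main scaling and of -0.12 after quantile normalization. The ryanodine receptor Ryr2 (log2 fold change 0.38, adjusted p = 1.3e-04, limma) and the Z-disc actinin Actn2 (0.29, adjusted p = 9.6e-05) were higher. The largest falls were those of the troponin Tnni3, from 3173 ± 66.9 to 1961 ± 86.8 FPKM, and of Myl7, from 8131 ± 74.2 to 5408 ± 166 FPKM (SD, n = 3), with log2 fold changes of -0.69 and -0.59. After quantile normalization that of Myl7 was -0.14 and no longer called. The summed FPKM of the 12 genes was between 17996 and 18472 in the BPVB rats and between 24366 and 24837 in the sham rats.

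**Figure D3:**
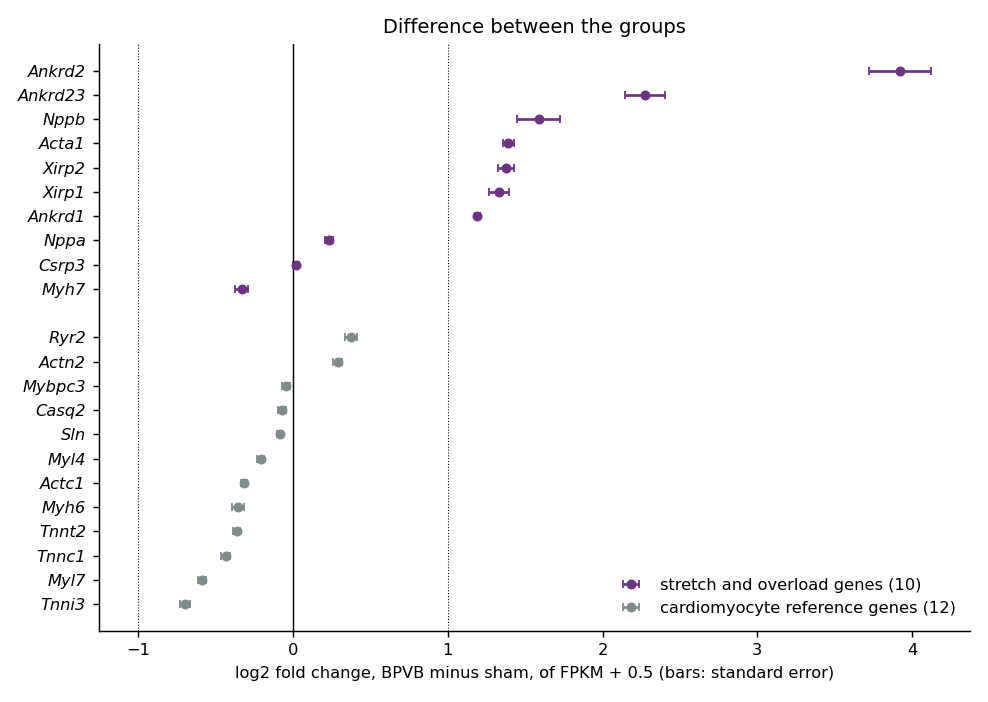
Log2 fold change of FPKM + 0.5, BPVB minus sham, with its standard error, for the 10 genes (purple) and the 12 cardiomyocyte reference genes (grey), and dotted lines at the threshold of 1 in either direction. The 7 genes beyond the threshold are all among the 10, and the reference genes lie between -0.69 and 0.38.

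When the level of each gene was taken relative to the mean log2(FPKM + 0.5) of the 12 reference genes in the same library, every difference shifted upward by 0.21, since that mean was 9.96 ± 0.015 in the sham group and 9.75 ± 0.014 in the BPVB group (SD, n = 3). The median difference of the 10 genes relative to the reference was 1.56 on the log2 scale. The difference was 1.40 for Ankrd1, 1.60 for Acta1, 1.79 for Nppb and 0.44 for Nppa. On this scale Csrp3 no longer overlapped between the groups, at 0.65 ± 0.016 in the BPVB group and 0.42 ± 0.0049 in the sham group (SD, n = 3). Most of its difference of 0.23 is the shift of the reference by 0.21, which any gene with little spread would show. Myh7 was -4.46 ± 0.071 and -4.34 ± 0.028, a difference of -0.12. This direction turned when the summed FPKM of the 12 genes was the reference, where the difference was 0.09 and the libraries overlapped.

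**Figure D4:**
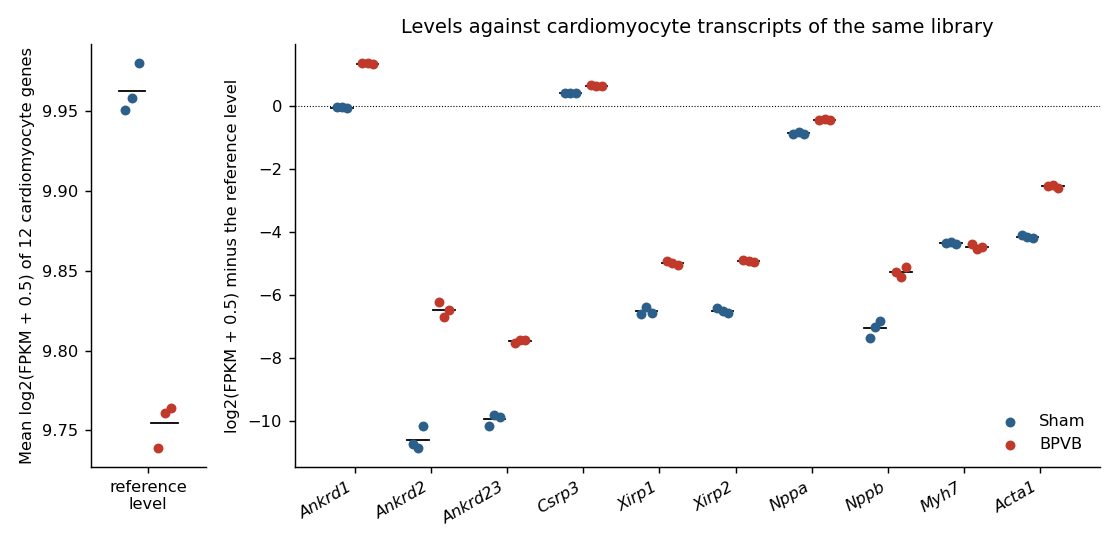
Left, mean log2(FPKM + 0.5) of the 12 cardiomyocyte reference genes in each library. Right, log2(FPKM + 0.5) of each of the 10 genes minus that mean, with 1 point per library and a line at the group mean. The reference is about 0.21 lower in the BPVB libraries, and Csrp3, which overlaps in FPKM, is apart on this scale, mostly through that shift.

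Several of the 10 genes are also used by ventricular or skeletal muscle, so the markers of these tissues are given beside them. Of 3 ventricle markers tested, the light chain Myl3 was higher, from 9.58 ± 1.73 to 26.2 ± 3.89 FPKM (log2 fold change 1.41, standard error 0.14, adjusted p = 7.7e-05, limma), and Myl2 and Hey2 were not called. Their summed FPKM was 34.9 to 40.2 in the sham libraries and 47.8 to 57.2 in the BPVB libraries. Of 10 fast skeletal muscle genes tested, 1 was higher (Mybpc2), 2 were lower and 7 were not called. The muscle creatine kinase Ckm fell by 0.85 on the log2 scale, and the calsequestrin Casq1 by 0.57. The summed FPKM of this list was 670 to 683 in the sham libraries and 372 to 387 in the BPVB libraries, most of it Ckm, which heart muscle also makes. The fast myosins Myh1 and Myh2 were at 0.0260 ± 0.0178 and 0.206 ± 0.0547 FPKM in the sham group and at 0.0192 ± 0.0284 and 0.189 ± 0.145 in the BPVB group (SD, n = 3). The fast troponin Tnnt3 and the light chain Myl1 stood at 4.10 ± 0.583 and 2.06 ± 0.0840 FPKM in the sham group and at 4.06 ± 0.899 and 1.72 ± 0.265 in the BPVB group. Tnni2 was at 0.0412 ± 0.0714 and 0.375 ± 0.364 FPKM and Mylpf at 0.263 ± 0.200 and 0.507 ± 0.402 in the sham and BPVB groups, and none of these 4 genes was called. Of 4 slow and developmental skeletal genes tested, the slow troponin Tnnt1 was higher (3.86 ± 0.188 to 10.6 ± 0.921 FPKM, adjusted p = 6.0e-06), Myh8 was lower and 2 were not called. The list summed to 7.36 to 8.46 FPKM in the sham libraries and to 13.4 to 14.9 in the BPVB libraries. The calls of Mybpc2 and Myh8 were unstable: the number of fast genes called higher was 0 without BPVB replicate 1 or 3 or sham replicate 2 or 3 and 2 without BPVB replicate 2, and the number of slow and developmental genes called lower was 0 with any 1 library left out. In the fits that lost the call, the log2 fold change of Mybpc2 was between 0.62 and 0.70, beside 0.74 with all libraries, and that of Myh8 between -0.47 and -0.38, beside -0.42. Whether cells of these kinds had a part in the values of the 10 genes was not tested.

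Markers of the other cell types of the vein and of the lung moved as well. All 6 genes of alveolar type 2 cells were higher in the BPVB group, with a sum of 58.7 to 60.2 FPKM in the sham libraries and 518 to 568 in the BPVB libraries. The surfactant genes Sftpc and Sftpb rose the most (log2 fold changes 3.40 and 3.31). The call of 1 of the 6, Abca3 (log2 fold change 0.31, standard error 0.095, adjusted p = 0.034, limma), was lost without BPVB replicate 1 or 3 or sham replicate 1 or 3, where its log2 fold change was between 0.25 and 0.30, and 5 were then called higher. All 6 macrophage genes were higher too, with sums of 209 to 215 and 652 to 675 FPKM, led by the lysozyme gene Lyz2 (1.85) and Cd68 (1.09). Of 8 smooth muscle genes, 1 was higher (Lmod1, 0.29), 5 were lower and 2 were not called, and their sum was 4616 to 4690 FPKM in the sham libraries and 4125 to 4173 in the BPVB libraries. The enteric actin Actg2 (-0.76) and the smooth muscle myosin Myh11 (-0.30) had the largest falls of this list. Of 6 endothelial genes, 5 were lower and 1 was not called, with sums of 791 to 797 and 652 to 674 FPKM, and Emcn (-0.52) and Cdh5 (-0.34) fell the most. The part of these shifts in the levels of the 10 genes was not tested.

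The other genes of the pathways came from lists that were written with earlier results of these data known, and are given by their counts. In the natriuretic peptide pathway, 12 further genes were tested, 4 higher, 2 lower and 6 not called, with a median log2 fold change of 0.16. The cGMP-dependent kinase Prkg1 (0.48, standard error 0.067, adjusted p = 6.6e-04, limma) and Corin, the protease that cuts the Nppa precursor (0.28, standard error 0.053, adjusted p = 0.0041), rose the most among the 4 called higher. The other kinase of this kind, Prkg2, did not pass the filter on low values and went the other way. It had 14, 12 and 17 fragments in the sham libraries and 0, 0 and 4 in the BPVB libraries. Furin, which cuts the Nppb precursor, rose by 0.27 (adjusted p = 0.0014). The phosphodiesterases Pde2a and Pde9a, which break down cGMP, fell by 0.56 and 0.38. A further phosphodiesterase of cGMP, Pde5a, was called higher at 0.23 (standard error 0.075, adjusted p = 0.047), a call that held in the fit without BPVB replicate 2 and was lost in the 5 others that each left out a library, where its log2 fold change was between 0.17 and 0.25. The receptors Npr1, Npr2 and Npr3 were not called, with 18.8 ± 1.33, 14.1 ± 0.382 and 28.0 ± 1.08 FPKM in the sham group and 16.6 ± 0.540, 13.9 ± 1.56 and 28.9 ± 1.62 in the BPVB group (SD, n = 3).

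Of 26 other Z-disc and titin-linked genes, 13 were higher, 6 were lower and 7 were not called, with a median of 0.13. Flnc, the muscle filamin, rose from 29.1 ± 0.698 to 62.1 ± 0.596 FPKM (log2 fold change 1.08, adjusted p = 1.6e-07, limma), and the titin-binding LIM protein Fhl1 from 278 ± 1.27 to 460 ± 3.26 (0.73, adjusted p = 7.9e-08). In the other direction went titin itself, Ttn, from 20.7 ± 0.454 to 10.7 ± 0.113 FPKM (-0.92, adjusted p = 2.4e-06), and Tcap, from 2156 ± 36.1 to 1245 ± 40.5 (-0.79, adjusted p = 1.7e-07). The 3 MARP transcripts were thus higher and that of titin, which they bind, was lower, and Tcap was lower while its partner Csrp3 was not called.

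At the intercalated disc, where the Xin proteins are found, 6 of 17 genes were higher, 4 lower and 7 not called, with a median of 0.01. Nrap, an anchor of the terminal actin filaments, was higher (0.88, standard error 0.043, adjusted p = 1.2e-06, limma), as was the gap junction gene Gja1 (0.62, standard error 0.034, adjusted p = 2.4e-06). Tmem65 was lower (-0.63, standard error 0.044, adjusted p = 1.2e-05), and so was the desmosomal cadherin Dsg2 (-0.30, standard error 0.089, adjusted p = 0.030). The call of Dsg2 was lost without BPVB replicate 1 or 3 or sham replicate 1, where its log2 fold change was between -0.27 and -0.22, and the number of lower genes was 2 without sham replicate 3.

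Of 16 other genes linked to overload and hypertrophy, 9 were higher, 5 lower and 2 not called, with a median of 0.27. Rcan1, which is induced by calcineurin signalling, rose from 40.8 ± 0.206 to 161 ± 3.38 FPKM (SD, n = 3; log2 fold change 1.97, standard error 0.031, adjusted p = 1.4e-09, limma). The small heat shock gene Hspb7 rose by 0.70 and the actin regulator Enah by 0.72. The stress cytokine Gdf15 was called higher at 0.78 (standard error 0.21, adjusted p = 0.021), from 0.802 ± 0.400 to 1.68 ± 0.231 FPKM. It was not called without BPVB replicate 1 or 2 or sham replicate 1 or 2, where its log2 fold change was between 0.59 and 0.80. The ubiquitin hydrolase gene Uchl1 fell by 0.80, the calcium pump Atp2a2 by 0.36 and the myosin gene Myh7b by 0.54. Myh7b was not called without BPVB replicate 3 (-0.45) or sham replicate 2 (-0.50).

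Of the factors whose sites were searched in the promoters, TEAD and SRF have known targets outside the 10 genes. Of 21 YAP-TEAD targets, 8 were higher, 3 lower and 10 not called, with a median of 0.19. Tissue factor F3 was higher, from 20.1 ± 0.663 to 40.0 ± 0.436 FPKM (0.98, adjusted p = 7.1e-07, limma), whereas Ccn1, from 258 ± 7.72 to 162 ± 2.48 FPKM, and Fjx1 were lower (-0.67 and -0.57). The related gene Ccn2 rose by 0.28. Nuak2 was called higher at 0.54, and that call held in 1 of 6 fits that each left out a library, the one without BPVB replicate 1, and in the others its log2 fold change was between 0.38 and 0.59. Of 15 targets of SRF and its MRTF partners, 1 was higher (Lmod1, 0.29), 10 were lower and 4 were not called, with a median of -0.13, and after quantile normalization 6 were lower. Tpm1 (-0.53, adjusted p = 4.8e-07) and Flna (-0.30, adjusted p = 3.7e-05) had the largest falls, and Srf was not called (-0.01, standard error 0.060). Acta1, whose window holds a CArG box, was higher, whereas 10 of the 15 genes of this list were lower. Acta2, Tagln, Cnn1 and Lmod1 of this list are also on the smooth muscle list above, whose sum was lower in the BPVB group. The lists are therefore not separate observations, and the activity of SRF was not tested.

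**Figure D5:**
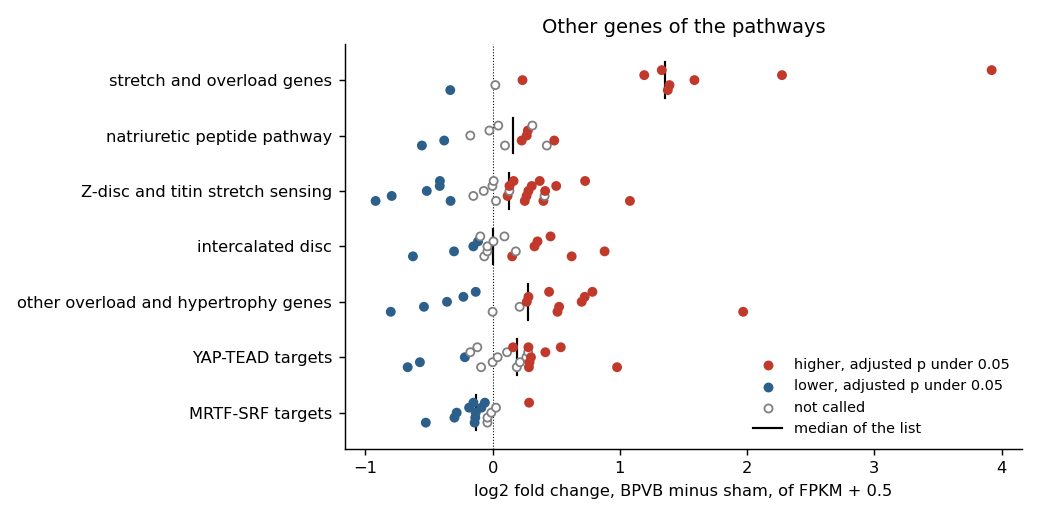
Log2 fold change of FPKM + 0.5, BPVB minus sham, for the 10 genes and the tested genes of 6 pathway lists, with filled points for genes called higher (red) or lower (blue) at an adjusted p under 0.05, open points for genes not called and a line at the median of each list. The medians of the 6 lists lie between -0.13 and 0.27, beside 1.35 for the 10 genes.

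For the 4 genes with the largest log2 fold change, the non-member genes with the most similar pattern were found among 12147 genes whose mean FPKM was 1 or more, by the Euclidean distance between mean-centred log2(FPKM + 0.5) over the 6 libraries. Nearest to Ankrd2 were the MHC class II gene RT1-Ba (distance 0.37), Angptl4 (0.73) and the phosphate transporter Slc34a2 (0.85). Nearest to Ankrd23 were Lrrc2 (0.23), the chemokine Ccl21 (0.33) and the lysozyme gene Lyc2 (0.34). Gpat3 (0.31), Plin1 (0.36) and LOC291863 (0.38) lay nearest to Nppb. Acta1 had the closest neighbours, Gpc3 (0.09), the MHC class II gene RT1-Da (0.13) and Tnnt1 (0.16). Of these 12 neighbours, Tnnt1 was the one that stands on a muscle list used here. The distances are set mostly by the size of the difference between the groups and are a description.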

How the data were processed

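The authors deposited 1 FPKM value per gene and rat for 17833 genes. The paper's methods name fastp, HISAT and HTSeq-count, while the submitters' processing notes name HISAT2 2.0.5, StringTie 1.3.3b, featureCounts 1.5.0-p3 and DESeq2 1.20.0. Library kits also differ between these sources (VAHTS V6 and NEBNext Ultra). The genome build, annotation and strand setting are not given in the sources used here, so that genes overlapping on opposite strands may share reads. Within a library the FPKM were whole multiples of 1 fragment, scaled by gene length, and whole fragments were recovered for 100.0% of genes within a relative tolerance of 1e-07. Library totals of 23439506 to 29725808 fragments set the precision. The number of per-sample columns not used was 0.

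The groups were taken from the sample labels, which give pulmonary vein banding, as does the paper, whereas the design text of the series gives the abbreviation PAB. They were compared on log2(FPKM + 0.5) over 15150 genes (mean FPKM of 0.1 or more), with limma 3.58.1 in R 4.3.3 (lmFit, eBayes with trend, no covariate), two-sided, with Benjamini-Hochberg adjustment. This replaced the count test of the study, since the deposited unit is FPKM, and on simulated data the procedure was tested for the recovery of known changes. Averaged over genes, pairs of libraries of one group had a variance of 4.94 to 5.93 times the mean of their fragments, beyond sampling noise. Genes with many fragments weigh most in this average, and it cannot tell a spread between rats from one between library preparations. Each library was kept as 1 sample. Fragments were summed within a group only for the fragment ratios, whose intervals leave out this spread. Summaries, motif searches and figures used Python 3.11.15 (matplotlib 3.10.9, numpy 2.4.6, pandas 2.3.3, scipy 1.17.1).

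The 10 genes and the 14 context lists were chosen with earlier results of these data known. Named from each list were the 2 largest rises and 2 largest falls among called genes whose mean FPKM was 1 or more, and genes needed to say which did not pass. Furin, Prkg2, Hspb7, Enah, Atp2a2, Ccn2, Mybpc2, Myh8, Abca3, Pde5a, Myh6, Actc1, Acta2 and Pecam1 were named outside that rule after their values were seen. Irx4, Myh4, Myod1 and Myl6b were not analysed here. Alternatives were pseudocounts of 1 and 0.1, 2 other filters, median-of-ratios, TPM and quantile scaling, limma-voom on the recovered fragments, robust eBayes, the replicate number as a block, 2 other cardiomyocyte references and leaving out each of the 6 libraries. The ratio of Ankrd2 without each library was added after its counts were seen.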

Additional observations from a re-analysis of the deposited data

How the results depend on the processing

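Of 66 recomputed summary values of the 10 genes, 64 stayed within the limits set for a change. For the counts of genes called higher or past both thresholds these limits were wide beside a set of 10, so that staying within them says little. The exceptions were the median log2 fold change of the 10 genes, 1.40 with TPM in place of 1.35, and their median relative to the cardiomyocyte reference, 1.78 with the summed FPKM as reference in place of 1.56. In that setting the value of Myh7 turned from -0.12 to 0.091. Csrp3, which was not called, turned to -0.0036 with limma-voom and -0.0050 with median-of-ratios scaling, and was called at 0.15 after quantile normalization, where 9 of the 10 genes were called higher. Over all settings, 8 or 9 genes were called higher, 1 lower and 7 lay past both thresholds. The log2 fold change of Ankrd2 ranged from 3.16 to 6.15 and that of Ankrd23 from 1.83 to 3.08, and those of Ankrd1, Xirp1, Xirp2, Nppa, Nppb, Myh7 and Acta1 kept their direction. Nuak2 was also not called with no filter and after quantile normalization, nor Gdf15 with limma-voom. Of 104 called genes of the context lists, 21 lost the call in some fit without 1 library. Lower genes numbered 4 in the natriuretic list and 5 in the YAP-TEAD list with limma-voom. The cause of these shifts was not tested.

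Replicate numbers did not pair the rats: same-numbered libraries had deviations correlated by 0.025, 0.014 and 0.015. With the number as a block, 8 of the 10 genes were called higher and 1 lower as without it, 2466 and 2073 of all genes tested were called in place of 2605 and 2170, and Myh8 and Abca3 were among the genes that lost their calls. The number called higher was then 3 in place of 4 in the natriuretic list and 12 in place of 13 in the Z-disc list, and 9 in place of 10 were called lower in the MRTF-SRF list. Abca3 was also not called with no filter. Few fragments limit Ankrd2 and Ankrd23 in the sham group, and 3 rats per group limit every standard error. Some coefficients of variation in the sham group were very small, 0.412% for Ankrd1 and 0.506% for Rcan1, and others were wider, such as 21.3% for Nppb. Rcan1 had 2465, 2455 and 2482 fragments there. The small ones are no larger than counting noise alone can give, so that their standard errors may understate the spread between rats.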
